A study of Mus musculus with 10 samples.

Results

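The cathepsins are proteases of the endolysosome, and their transcripts were measured in small-intestinal macrophages after sham surgery or experimental stroke. The family was taken as 10 named genes (Ctsa, Ctsb, Ctsc, Ctsd, Ctse, Ctsh, Ctsk, Ctsl, Ctss and Ctsz), matched by symbol, and all 10 of the 10 were listed among the 17279 genes of the table. The choice set no cut on a measured value, but it was made with earlier results of these data known. Every library came from C57BL6/J mice, from CX3CR1-GFP+ lamina propria cells collected by fluorescence-activated sorting from the peeled mucosa of the whole small intestine 24 h after surgery. Sham surgery was compared with pMCAO, the permanent middle cerebral artery occlusion model of stroke, with 5 libraries labelled as biological replicates in each group. The labels give the strain with no reporter allele, although the sort relied on CX3CR1-GFP, and they give neither age nor sex. Replicate 1 of each group carried the word pool in its name, with no statement of what was pooled. CX3CR1 is also carried by some dendritic cells, so that the gate need not hold macrophages alone. Sequencing used 2.0 ng of total RNA per library after depletion of ribosomal RNA.

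Cathepsins are made as inactive precursors, tagged with mannose 6-phosphate, carried to the acidic lysosome and there cut to the active enzyme. They degrade proteins taken up by the cell, and in antigen-presenting cells they trim the invariant chain and the peptides that are loaded on MHC class II. The name covers 3 unrelated chemistries. Of the members, 7 use a cysteine (Ctsb, Ctsc, Ctsh, Ctsk, Ctsl, Ctss and Ctsz), 2 use aspartic acid (Ctsd and Ctse) and 1 uses a serine (Ctsa). Cystatins inhibit cysteine cathepsins and some serpins inhibit certain cathepsins, and the transcription factor TFEB and its relatives drive many lysosomal genes.

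The coding bases around the active site show this split, and they are printed here because the catalytic codon sets the class of each member. The sequences were read from the GENCODE transcript with the longest coding sequence of each gene on GRCm38, on the coding strand, and each runs over 27 bases with the codon of the catalytic residue in capitals.
Ctsb, codon 108 of 339: tcctgcggctctTGTtgggcatttggg
Ctsc, codon 257 of 462: tcttgtggaagcTGCtactcatttgcc
Ctsh, codon 139 of 333: gcctgtggcagcTGCtggactttctct
Ctsk, codon 139 of 329: cagtgtggttccTGTtgggctttcagc
Ctsl, codon 138 of 334: cagtgcgggtctTGTtgggcgtttagc
Ctss, codon 148 of 341: tcttgtggtgccTGCtgggctttcagt
Ctsz, codon 94 of 306: tactgtggttccTGCtgggcccacggc
Ctsd, codon 97 of 410: acagtcgtctttGATactggctcctct
Ctse, codon 97 of 397: actgtcatctttGACaccggttcatcc
Ctsa, codon 191 of 492: ctgacaggagagAGCtatgctggcatc
In the 7 cysteine cathepsins the capitals are a cysteine codon that follows codons for cysteine, glycine and serine or, in Ctss, alanine. In 6 of them a tryptophan codon comes next, and in Ctsc it is a tyrosine codon. In both aspartic members the aspartate codon follows a phenylalanine codon and precedes codons for threonine, glycine and serine.

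The genes lie on 7 chromosomes of GRCm38. Ctsk (chr3:95499256-95509362) and Ctss (chr3:95526786-95556403) are neighbours on the forward strand. Ctsa (chr2:164832873-164841032, forward) and Ctsz (chr2:174427493-174439039, reverse) share a chromosome, as do Ctsc (chr7:88278085-88310888, forward) and Ctsd (chr7:142375911-142388038, reverse). The others are Ctsb (chr14:63122462-63145923, forward), Ctse (chr1:131638306-131675505, forward), Ctsh (chr9:90054152-90076089, forward) and Ctsl (chr13:64359337-64370890, reverse). Exons of 5 members overlap exons of other annotated genes. For Ctsa, Ctsb and Ctsz these partners lie on the opposite strand (Neurl2 and Pltp, Fdft1, and Nelfcd), for Ctsd on the same strand (Gm49369) and for Ctsl on both (Gm47123 opposite and Gm49230 the same). Whether reads were counted by strand was not given in the sources used here. It is therefore not known whether reads in the opposite-strand overlaps were given to either gene or left uncounted. In the same-strand overlaps the strand setting would not separate the genes, and how their reads were treated is not known either. These cover 808 of 2351 exon bases of Ctsd and 395 of 6489 of Ctsl, and the opposite-strand overlap of Ctsl covers 1742. The levels per kb below use the full merged exon length.

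Depth differed between the groups. Total counts ran from 18894151 to 60665972 in the sham libraries and from 6430643 to 28672285 in the pMCAO libraries, and weak genes were counted less precisely after pMCAO. The 12 macrophage markers were all detected in every library, with summed levels of 3620 to 9962 CPM in the sham group and 5194 to 11400 CPM in the pMCAO group (CPM are counts relative to the library size, here scaled by TMM factors). Transcripts of other cell types were present in the sorted material. Summed markers of B and plasma cells spanned 1017 to 25560 CPM in sham and 1310 to 28260 CPM in pMCAO libraries, and 10 epithelial markers 464.9 to 1125 and 156.7 to 1481 CPM. Markers of dendritic cells reached at most 610.6 CPM and those of T cells 410.9 CPM, both in sham replicate 5. Of 6 neutrophil markers only S100a8 was listed, at no more than 6.23 CPM. Mcpt1, a mast cell protease gene outside these lists, spanned 1078 to 9667 CPM in sham and 191 to 3038 CPM in pMCAO libraries. It was highest in sham replicate 5. Xist was high in sham replicate 5 and pMCAO replicate 4 only, and values without that pair are given below where the direction changes. In bulk samples such as these, fewer cells of a type and less RNA per cell cannot be told apart.

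Per exon length, Ctss was the most abundant cathepsin. It stood at 1432 ± 309 CPM per kb of merged exon (mean ± SD, n = 10 libraries), 4.75 times the level of Ctsc, which was second at 301.5 ± 89.5. Ctsb followed at 184.4 ± 56.6, Ctsz at 140.7 ± 42.0 and Ctsh at 135.7 ± 20.4. Ctsa at 82.8 ± 14.3, Ctsd at 64.4 ± 16.9 and Ctsl at 24.0 ± 5.92 CPM per kb came next, and Ctse at 7.36 ± 7.38 and Ctsk at 0.354 ± 0.297 were lowest.

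Some steps in this order held in every library and some did not. Ctss exceeded Ctsc, Ctsc exceeded Ctsb, Ctsh exceeded Ctsa, Ctsl exceeded Ctse and Ctse exceeded Ctsk in 10 of 10 libraries. Ctsb was above Ctsz in 8, Ctsz above Ctsh in 6, Ctsa above Ctsd in 9 and Ctsd above Ctsl in 9, so that Ctsz and Ctsh in particular could not be ordered beyond their spread. The order also depends on the length used. Divided by the length of the transcript whose bases are printed above, in place of all merged exons, Ctsh moved from rank 5 to rank 3 with 377.6 CPM per kb, Ctsb went to rank 4 and Ctsz to rank 5, and the other ranks were kept. The lead of Ctss over Ctsc was also smaller by transcript length, at 1435 against 702.5 CPM per kb. These levels and ranks do not compare protein or enzyme activity.

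**Figure D1:**
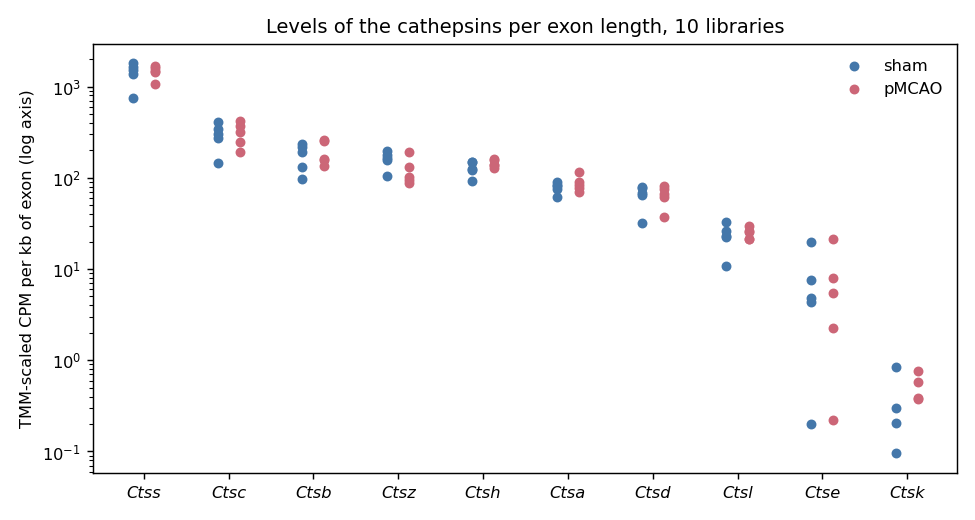
Level of each cathepsin in every library, as TMM-scaled CPM per kb of merged exon on a log axis, with sham libraries in blue and pMCAO libraries in red. The points fall from Ctss (mean 1432) to Ctsk (mean 0.354), the ranges of the groups overlap at every gene, and the 2 libraries with no Ctsk count are not drawn.

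The 10 genes together took 0.457 to 0.725% of all counts in the sham libraries and 0.536 to 0.799% in the pMCAO libraries. Their summed level was 6189 ± 1622 CPM after sham surgery and 6503 ± 1242 CPM after pMCAO (mean ± SD, n = 5 each), with ranges of 3589 to 7735 and 4739 to 7747. The sum was lowest in sham replicate 5 and next lowest in pMCAO replicate 5, in which the macrophage markers were also lowest, at 3620 and 5194 CPM. The ratio of the cathepsin sum to the marker sum was 0.991 and 0.912 in those libraries, and between 0.667 and 0.908 in the other 8. Ctss, Ctsc and Ctsb made up 68.3 to 80.8% of the sum in sham and 71.8 to 78.9% in pMCAO libraries.

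No cathepsin was called between post-stroke and sham-operated mice. With the edgeR quasi-likelihood test over 16949 genes and Benjamini-Hochberg adjustment, 0 of the 10 members had an adjusted p of at most 0.05, and 0 of all genes tested did (0%). The smallest adjusted p of a member was 0.937 (Ctsz and Ctsh), as was the smallest over all genes. At an unadjusted p under 0.05 there were 0 members and 800 genes, 4.72% of those tested, and in 4 of 21 alternatives 1 member (Ctsz) was under that value. The sham and pMCAO ranges overlapped for all 10 members, while 0.985% of genes tested had groups that did not overlap. DESeq2 called 3 genes and limma-voom 0, none of them a cathepsin. The log2 fold change (pMCAO against sham) was above 0 for 8 members, with a median of 0.08, against -0.01 and 49.4% above 0 over all genes tested. Over the alternatives this member median ran from -0.056 (without the 2 libraries with high Xist) to 0.18 (without both pool libraries). It was 0.014 without sham replicate 5. Several members moved together over libraries, as described below, so that their signs are not independent.

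**Figure D2:**
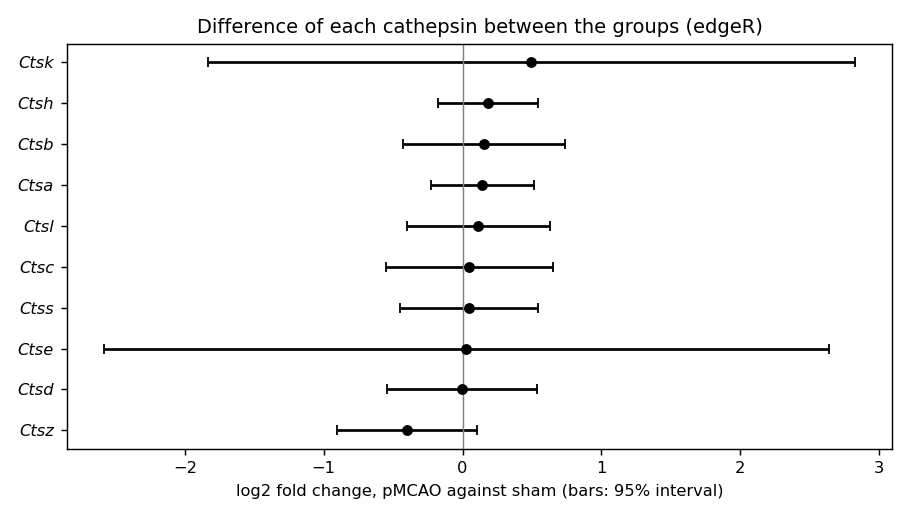
Log2 fold change of each cathepsin, pMCAO against sham, from edgeR, with 95% intervals as bars, ordered by size. Every interval includes 0. Those of Ctse and Ctsk are several times wider than the others, and Ctsz has the lowest estimate at -0.40.

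Of the members, 8 (all but Ctse and Ctsk) had at least 604 counts in every library, and their 95% intervals bound the difference. These intervals ran at their widest from a fold of 0.535 (the lower bound of Ctsz) to 1.67 (the upper bound of Ctsb), with standard errors of 0.17 to 0.28 on the log2 scale.

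Among the endopeptidases that act on antigen and on the invariant chain, Ctss encodes the enzyme best known for the last cut of the invariant chain in antigen-presenting cells. It measured 2211, 1845, 2050, 2433 and 1020 CPM in sham replicates 1 to 5 and 2278, 1953, 2187, 1998 and 1465 CPM in pMCAO replicates 1 to 5. All pMCAO libraries lay within the sham range, which sham replicate 5 set at its lower end. With a log2 fold change of 0.05, the 95% interval was -0.45 to 0.54 (edgeR adjusted p = 0.988). The estimate was -0.12 without sham replicate 5, and also without the 2 libraries with high Xist, and -0.010 without pMCAO replicate 1.

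Ctsl encodes an endopeptidase of broad specificity. Its values were 169.0, 149.9, 144.0, 213.3 and 70.3 CPM in the sham libraries and 140.1, 193.2, 165.7, 171.3 and 137.2 CPM in the pMCAO libraries. Again all post-stroke libraries lay within the sham range, with the highest and the lowest library both in the sham group. Its log2 fold change was 0.11 (95% interval -0.40 to 0.63, edgeR adjusted p = 0.974), and -0.071 without sham replicate 5 or -0.092 without the 2 libraries with high Xist.

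Ctsb encodes a protease with both endopeptidase and carboxydipeptidase activity that is abundant in macrophages. It was measured at 1158, 798.3, 1327, 1414 and 584.0 CPM after sham surgery and at 982.1, 941.6, 1552, 1578 and 824.8 CPM after pMCAO. Replicates 3 and 4 were the highest of each group, and pMCAO replicates 3 and 4 alone exceeded the sham range. For Ctsb the log2 fold change was 0.15 (95% interval -0.43 to 0.74, edgeR adjusted p = 0.965). It was -0.0021 without sham replicate 5 and -0.13 without both libraries with high Xist.

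Ctsk, known for the digestion of bone collagen by osteoclasts, was close to the limit of detection. It had 9, 14, 5, 0 and 98 counts in the sham libraries and 6, 15, 0, 14 and 18 in the pMCAO libraries. In the 2 libraries without a count, 3 counts would correspond to 0.189 CPM (sham replicate 4) and 0.303 CPM (pMCAO replicate 3), which covers counting error only. The log2 fold change of 0.50 had a 95% interval of -1.83 to 2.83, and at this depth a difference was not detectable. Ctss, its neighbour on chromosome 3, had at least 15544 counts in every library.

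Of the exopeptidases, Ctsc, also called dipeptidyl peptidase I, removes pairs of residues from the start of proteins and activates the serine proteases of leukocyte granules. Its values were 1760, 1595, 2007, 2402 and 847.8 CPM in sham and 1831, 1416, 2128, 2412 and 1114 CPM in pMCAO libraries. Same-numbered libraries stood close in replicates 1, 3 and 4, and replicate 5 was lowest in both groups. A log2 fold change of 0.05 (95% interval -0.55 to 0.65, edgeR adjusted p = 0.991) was estimated. It was -0.13 without sham replicate 5, -0.26 without both libraries with high Xist, -0.030 without pMCAO replicate 3 and -0.093 without pMCAO replicate 4.

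Ctsh, an aminopeptidase, was among the least variable members. It measured 668.7, 545.8, 676.2, 556.1 and 413.3 CPM after sham surgery and 620.0, 625.5, 717.3, 707.2 and 575.1 CPM after pMCAO. All 5 pMCAO libraries were above the sham mean of 572.0 CPM, and 3 of the 5 lay within the sham range. Between the groups, the log2 fold change was 0.18 (SE 0.17, 95% interval -0.18 to 0.54, edgeR adjusted p = 0.937).

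Ctsz, a carboxypeptidase also named cathepsin X, had the smallest unadjusted p of the family (0.111). It was measured at 235.6, 228.5, 282.0, 257.6 and 149.1 CPM in the sham libraries and at 136.2, 188.4, 276.7, 146.8 and 126.5 CPM in the pMCAO libraries. All but pMCAO replicate 3 were under the sham mean of 230.6 CPM, and 3 pMCAO libraries were below every sham library. Its log2 fold change was -0.40 (SE 0.23, 95% interval -0.90 to 0.11, edgeR adjusted p = 0.937). It was -0.63 without pMCAO replicate 3 (edgeR unadjusted p = 0.00898), -0.52 without sham replicate 5 (edgeR unadjusted p = 0.0384) and -0.65 in limma-voom with sample quality weights (limma unadjusted p = 0.0057). Its adjusted p was 0.373 or more under every alternative run.

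Ctsa encodes the serine carboxypeptidase that also holds the enzymes neuraminidase 1 and beta-galactosidase in a stable complex. Its values were 397.5, 359.5, 423.0, 382.0 and 293.0 CPM in sham and 360.1, 423.4, 542.8, 395.4 and 325.6 CPM in pMCAO libraries. Only pMCAO replicates 2 and 3 exceeded the sham range. For Ctsa the log2 fold change was 0.14 (95% interval -0.23 to 0.51, edgeR adjusted p = 0.954).

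Ctsd, the main aspartic endopeptidase of lysosomes, did not follow the other abundant members. It measured 153.6, 160.4, 182.3, 75.7 and 186.6 CPM in sham and 88.5, 155.2, 177.5, 190.7 and 144.2 CPM in pMCAO libraries. Sham replicate 4, which had the most Ctss and Ctsl of all libraries, had the least Ctsd, and sham replicate 5, which had the least of 6 other members, had the second highest level of Ctsd. Its log2 fold change of -0.0046 (95% interval -0.55 to 0.54, edgeR adjusted p = 0.999) was close to 0 and changed sign under 12 of 21 alternatives.

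**Figure D3:**
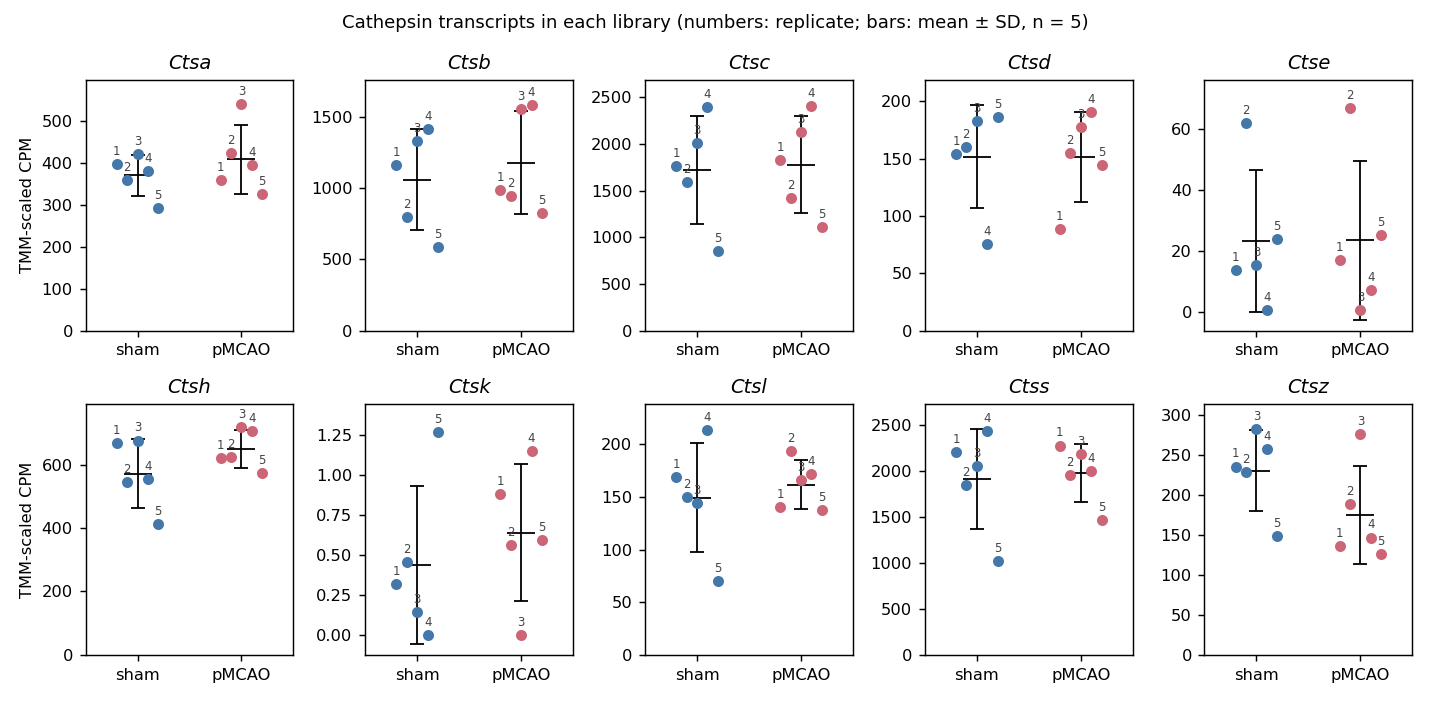
TMM-scaled CPM of each cathepsin by library, with the replicate number above each point and the mean ± SD of 5 libraries per group as bars. The groups overlap in all 10 panels. Sham replicate 5 is the lowest library for Ctsa, Ctsb, Ctsc, Ctsh, Ctsl and Ctss, and replicate 2 is the highest of each group for Ctse.

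Ctse, the other aspartic member, is found in endosomes of immune cells and in the lining of the stomach, and it varied far more than the rest. It measured 13.8, 62.2, 15.3, 0.629 and 24.0 CPM in the sham libraries and 17.2, 67.2, 0.707, 7.14 and 25.4 CPM in the pMCAO libraries, a 107-fold span. Replicate 2 was highest in each group, sham replicate 4 and pMCAO replicate 3 held only 10 and 7 counts, and the groups overlapped throughout. Its log2 fold change was 0.03 with a 95% interval of -2.58 to 2.64 (edgeR adjusted p = 0.999). The estimate ran from -0.88 without pMCAO replicate 2 to 0.81 without sham replicate 2. The SD of Ctse within groups was 2.43 on the log2 scale, larger than that of 98.4% of genes tested, for which the median was 0.58.

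The immunoglobulin genes varied over the same libraries. They took 5.15, 16.3, 6.36, 0.586 and 4.56% of all counts in sham replicates 1 to 5 and 6.26, 19.2, 0.938, 0.914 and 5.44% in pMCAO replicates 1 to 5. The 2 libraries with the most immunoglobulin were the 2 with the most Ctse, and the 3 with under 1% immunoglobulin were the 3 with the least. Jchain, which encodes the joining chain of secreted IgA and IgM, reached 24250 CPM (sham) and 26770 CPM (pMCAO) in the libraries numbered 2, and ranged from 737.7 to 1263 CPM where Ctse was least. All 8 B and plasma cell markers were detected in every library, except that Cd79a and Ms4a1 were at 0 in pMCAO replicate 3. The gene closest to Ctse in its pattern was Fkbp11, a chaperone-related gene of secretory cells, whose log2 ratio to Ctse had an SD of 0.51 over 10 libraries. The median over 9037 genes was 2.34, and Fkbp11 was picked as the smallest of these SDs, so that its place under the median was set by the choice. The part of B and plasma cells in the Ctse counts was not tested. The share of mitochondrial ribosomal RNA also differed between these libraries. It was 21.4% of counts in sham replicate 4 and 20.5% in pMCAO replicate 3, the libraries with the least Ctse and with no Ctsk count, and 2.79 to 12.4% in the other 8, and its part was not tested either.

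**Figure D4:**
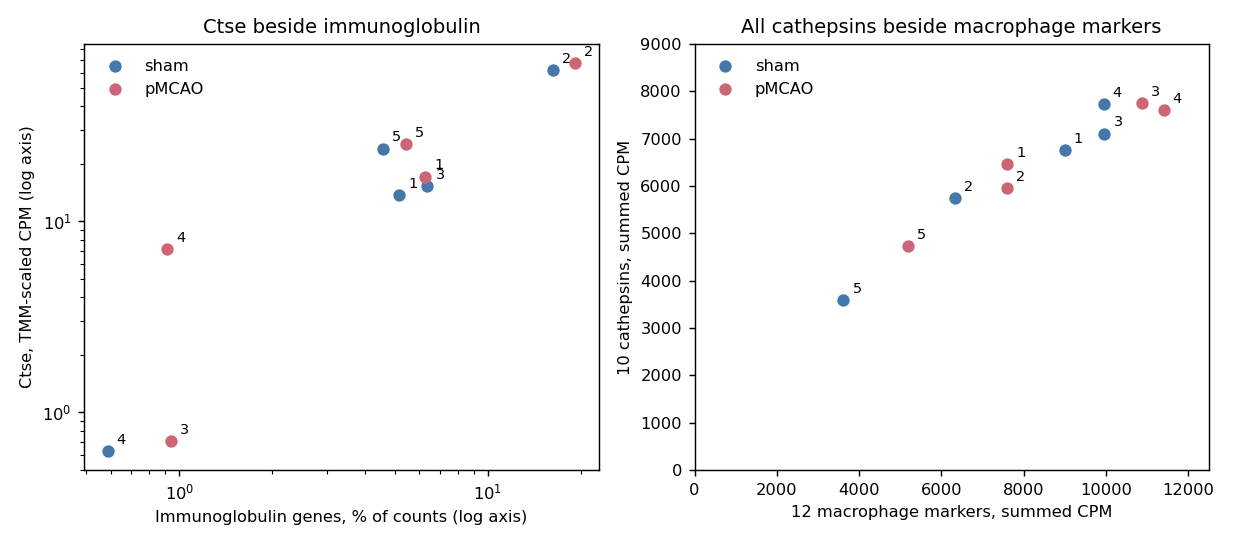
Left, Ctse (TMM-scaled CPM) against the percentage of counts from immunoglobulin genes, both on log axes. Right, the summed CPM of the 10 cathepsins against that of 12 macrophage markers. Each point is a library, numbered by replicate, with sham in blue and pMCAO in red. Both replicates 2 sit at the top right on the left, and sham replicate 5 (3589 and 3620 CPM) at the bottom left on the right.

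How closely members moved over libraries was described by the SD of their log2 ratio across the 10 libraries, in which library size cancels and both groups enter. The closest pair was Ctsa and Ctsh, with an SD of 0.15, followed by Ctsb and Ctsc (0.18), Ctsl and Ctss (0.21) and Ctsc and Ctss (0.22). The closest pair crosses the chemistry of the active site, since Ctsa uses a serine and Ctsh a cysteine, while the other pairs named join cysteine members. Ctsd was no closer than 0.49 to any member (Ctsa), and 0.76 from Ctsc. Ctsz was no closer than 0.34 (Ctsa), and Ctse no closer than 1.46 (Ctsk). Within groups, the SD of log2 CPM was 0.23 for Ctsh and 0.24 for Ctsa, and 0.39 to 0.51 for Ctsb, Ctsc, Ctsd, Ctsl, Ctss and Ctsz. The median was 0.30 over the 1728 genes with at least 100 CPM.

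**Figure D5:**
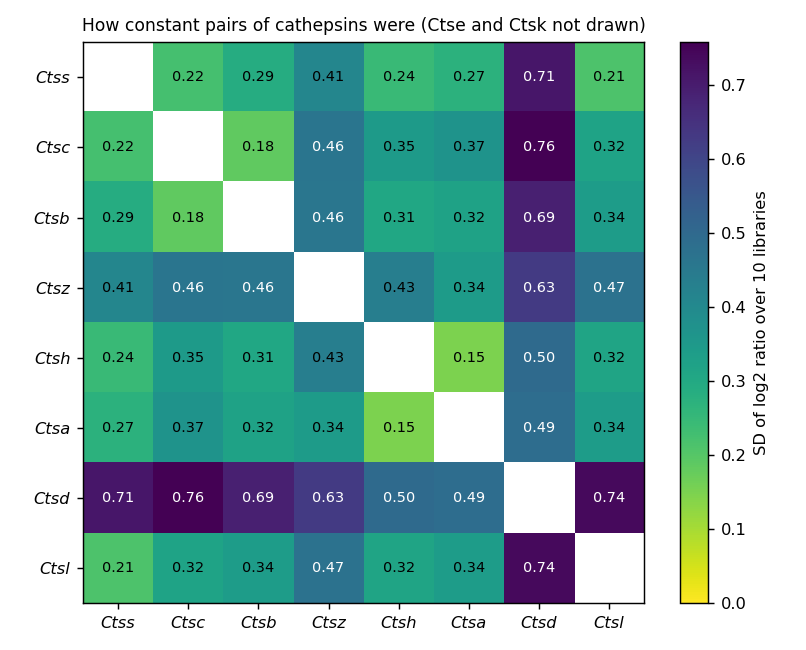
SD of the log2 ratio between pairs of cathepsins over 10 libraries, for the 8 members other than Ctse and Ctsk. Lighter squares are pairs whose ratio was more constant, from 0.15 for Ctsa and Ctsh to 0.76 for Ctsc and Ctsd.

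By the same measure each member had a nearest gene outside the family among 9037 genes with at least 10 CPM on average. For Ctsc it was App, the amyloid precursor protein gene (SD 0.07, against a median of 0.60). For Ctsa it was Prex1 (0.12), for Ctsh Slc31a2 (0.12), for Ctsl Cyp20a1 (0.13) and for Ctsd Rpl17 (0.13). For Ctss it was Lair1, an inhibitory receptor of leukocytes (0.14), for Ctsb Cltc, the clathrin heavy chain (0.15), and for Ctsz Metrnl (0.16). Medians over all genes compared were 0.43 to 0.60 for these 8 members. Each nearest gene was picked as the smallest SD, so that its place under the median was set by the choice. Some were weakly expressed, as Rpl17 at 8.11 to 16.2 CPM and Cyp20a1 at 10.5 to 27.2 CPM. For Ctsk the nearest was Txk at 0.95, at counts too low to read.

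The table also held 4 other cathepsins of the 13 looked for, of which 9 (Ctsj and further members of the placental cluster) were not listed. Of the 4, 0 were called in either direction, 3 had a log2 fold change above 0 and 1 below. Ctso, a cysteine cathepsin of little known function, was both the most abundant and the one with the smallest p. It was measured at 55.0, 60.8, 48.5, 56.3 and 44.4 CPM in the sham libraries and at 69.0, 74.7, 73.9, 87.7 and 68.8 CPM in the pMCAO libraries. Every pMCAO library was above every sham library. Its log2 fold change was 0.50 (SE 0.15, 95% interval 0.18 to 0.81, unadjusted p = 0.0045), and it did not pass the test over all genes (edgeR adjusted p = 0.937). Ctsf, Ctsw and Ctsg were at means of 7.48, 19.7 and 1.10 CPM in the sham group and 10.4, 13.4 and 1.24 CPM in the pMCAO group. Ctsw belongs to cytotoxic lymphocytes, and its highest level, 55.9 CPM, was in sham replicate 5, where T cell markers summed to 410.9 CPM.

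Of 12 cathepsin inhibitors 7 were listed and 0 were called, with 2 log2 fold changes above 0, 5 below and a median of -0.34. Cst3, which encodes cystatin C, the main secreted inhibitor of cysteine cathepsins, was the highest at 645.7 ± 133.9 CPM in sham and 600.4 ± 149.6 CPM in pMCAO libraries (mean ± SD, n = 5). Cstb, its intracellular counterpart, had the smallest unadjusted p of the list (0.126), with 107.2 ± 24.4 and 84.9 ± 21.6 CPM and a log2 fold change of -0.34 (95% interval -0.78 to 0.11, edgeR adjusted p = 0.937).

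The 6 genes of delivery to the lysosome were all listed, 0 were called, and all 6 log2 fold changes were below 0 with a median of -0.21. M6pr, the cation-dependent mannose 6-phosphate receptor, was highest at 204.2 ± 24.6 CPM in sham and 179.9 ± 18.0 CPM in pMCAO libraries. Gnptg, the gamma subunit of the enzyme that starts the mannose 6-phosphate tag, was at 33.9, 27.5, 31.9, 30.7 and 28.7 CPM after sham surgery and at 25.1, 25.5, 15.8, 20.02 and 16.7 CPM after pMCAO. Every pMCAO library was below every sham library, with a log2 fold change of -0.57 (95% interval -0.98 to -0.16, unadjusted p = 0.0104), which did not pass over all genes (edgeR adjusted p = 0.937). Exons of Gnptg overlap those of Unkl on the opposite strand over 1113 bases. Gnptab, which encodes the other subunits of that enzyme, had a log2 fold change of -0.12 (95% interval -0.46 to 0.21).

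Of 8 partners of the cathepsins, 0 were called, 6 log2 fold changes were above 0 and 2 below, and the median was 0.06. Cd74, the invariant chain that Ctss cuts, was highest at 5860 ± 1630 CPM in sham and 5818 ± 1226 CPM in pMCAO libraries, with a log2 fold change of -0.01 (95% interval -0.52 to 0.50). Psap, the precursor of the saposins and a substrate of cathepsin D, had the smallest unadjusted p of the list (0.382). Neu1 and Glb1, which the product of Ctsa protects, had log2 fold changes of -0.09 and 0.17 with intervals that included 0.

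Among the 4 transcription factors of lysosomal genes, 0 were called, 3 log2 fold changes were above 0 and 1 below. Mitf was highest, at 66.8 ± 13.4 CPM in sham and 77.7 ± 17.4 CPM in pMCAO libraries. Tfeb was at 22.5, 20.4, 22.8, 27.9 and 20.4 CPM in sham and at 14.2, 19.8, 13.3, 16.9 and 18.2 CPM in pMCAO libraries. The groups of Tfeb did not overlap, by less than 1 CPM, and its log2 fold change of -0.46 (95% interval -0.88 to -0.04, unadjusted p = 0.0341) did not pass over all genes (edgeR adjusted p = 0.937). Groups that did not overlap were found for Ctso (1 of 4 other cathepsins), Gnptg (1 of 6 delivery genes) and Tfeb (1 of 4 transcription factors). They were found for 0 of 7 inhibitors and 0 of 8 partners, and for 0.985% of all genes tested. The 5 lists were chosen with earlier results of these data known and were not tested as sets. Values of Ctso, Gnptg and Tfeb under the alternatives are not given here.

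Promoters of 7 members (Ctsa, Ctsc, Ctsd, Ctsk, Ctsl, Ctss and Ctsz) were found in the RefSeq table of GRCm38.p6, which gives 250 bases before and 50 after each start. They were searched on both strands for TCACGTGA, the palindromic core of the element that TFEB binds, and for GAGGAAGT, an Ets-type motif of the kind bound by the macrophage factor PU.1. The sites found are printed within 30 bases on the gene's strand, with the motif in capitals, because the factors of the first are among the genes above.
Ctsa, chr2:164833757-164833786, forward: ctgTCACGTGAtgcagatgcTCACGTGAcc
Ctsd, chr7:142387908-142387937, reverse: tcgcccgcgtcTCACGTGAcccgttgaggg
Ctsc, chr7:88277923-88277952, forward: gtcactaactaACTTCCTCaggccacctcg
Ctss, chr3:95526773-95526802, forward: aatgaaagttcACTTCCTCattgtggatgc
Ctsa held 2 matches to TCACGTGA, beginning 13 bases before and 4 bases after the second of its 2 listed starts. Ctsd held 1 at 99 bases before its RefSeq start (chr7:142387827). That start and the printed site both lie inside the longer GENCODE span of Ctsd given above. The motif was in 0.974% of 32851 promoters. GAGGAAGT, read on the other strand as ACTTCCTC, began 151 bases before the start of Ctsc and 2 bases before that of Ctss, and it was in 3.2% of all promoters. The shorter CACGTG, which lies within TCACGTGA, had 2 matches in Ctsd, 1 of them within its TCACGTGA, and 1 match in Ctsl. It was in 7.15% of all promoters. The promoter used for Ctsl (chr13:64370471-64370770) lies inside the gene span given above. A match of letters is a description of the sequence and shows no binding. The 2 members with TCACGTGA, Ctsa and Ctsd, had log2 fold changes of 0.14 and -0.0046.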

How the data were processed

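RNA was measured in 10 libraries of CX3CR1-GFP+ lamina propria macrophages, grouped by the treatment label into 5 sham and 5 pMCAO libraries. The authors deposited raw counts for each gene as whole numbers, and CPM values that the authors scaled to the total of the listed genes, which recomputed totals matched within 0.0005. The submitters' processing notes name STAR, featureCounts, limma, GRCm38 and mm10. Versions and strand setting are not given in the sources used here. Every gene listed had at least 10 counts in at least 2 libraries. The deposited log2 fold changes, mean expression, p-values and FDR were not used.

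Counts were filtered with filterByExpr, scaled by TMM and tested with the edgeR 4.0.16 quasi-likelihood test in R 4.3.3 without covariates, on all 10 libraries. P-values were adjusted over 16949 genes, and a gene was called at an adjusted p of at most 0.05. Standard errors and 95% intervals came from the F statistic. Alternatives were DESeq2 1.42.0, limma 3.58.1 (voom, with and without sample weights), upper-quartile scaling, other filters, the replicate number, transcript length, immunoglobulin genes left out, and libraries left out. Levels between genes were divided by merged exon length from GENCODE on GRCm38 (17193 genes matched), and by transcript length as an alternative chosen after seeing the data. Any pair of libraries of a group differed beyond sampling noise (the lowest chi-square divided by its degrees of freedom was 47.3). The count added for log2 ratios was 0.5.

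All 10 members were named. From each list the gene of highest level and that of smallest unadjusted p were named, other genes of the lists singled out having been chosen after their values were seen, and for each member the nearest gene by log2 ratio. The members, lists, markers and alternatives were chosen with earlier results of these data known.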

Additional observations from a re-analysis of the deposited data

Results flagged for a closer look

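Among the 20 groups of 5 libraries (10 members in 2 groups), 2 had a library whose gap to its nearest neighbour exceeded 0.71 of the group's range on the log2 scale, where chance gives about 1 in 20. Ctsd in sham replicate 4 lay below the other sham libraries, at 75.7 CPM against 153.6 to 186.6 CPM, with a gap of 0.784 of the range. Without that library the log2 fold change of Ctsd was -0.18. Ctsk in pMCAO replicate 3 had 0 counts, a gap of 0.769 of the range, in a library where 3 counts would give 0.303 CPM.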

How the results depend on the processing

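None of the 10 members was called under any of 21 alternatives, and the smallest adjusted p of a member was 0.373. Over all genes, the only alternative with a call was DESeq2, with 3 genes (2 of them with a log2 fold change beyond 1 in size). Of 209 recomputed log2 fold changes of members, 30 had the opposite sign. Ctsh, Ctsk and Ctsz kept their direction throughout, although Ctsk was removed by the filter that asks for over 1 CPM in 5 libraries. Ctsd, close to 0, turned to 0.020 with DESeq2 and with upper-quartile scaling, 0.024 with limma-voom, 0.0073 with that filter, 0.053 with length offsets and 0.14 without both pool libraries. With sample quality weights Ctsa was -0.0058 and Ctse -0.039, and Ctse was -0.018 without both pool libraries. Without the 2 libraries with high Xist, Ctsb was -0.13, Ctsc -0.26, Ctsl -0.092 and Ctss -0.12. The cause was not tested. Leaving out each library in turn gave 0.013 to 0.21 for Ctsa, -0.0021 to 0.27 for Ctsb, -0.13 to 0.19 for Ctsc, -0.18 to 0.14 for Ctsd, -0.88 to 0.81 for Ctse, 0.080 to 0.25 for Ctsh, 0.17 to 1.41 for Ctsk, -0.071 to 0.27 for Ctsl, -0.12 to 0.14 for Ctss and -0.63 to -0.30 for Ctsz. The lowest values of Ctsb, Ctsc, Ctsl and Ctss came without sham replicate 5, and Ctsk reached 1.41 without it.

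With the replicate block 0 genes were called (1369 at an unadjusted p under 0.05, against 800 without it), and the smallest adjusted p over all genes was 0.0524. No member was called, and 1, Ctsz, had an unadjusted p under 0.05 (edgeR log2 fold change -0.43, unadjusted p = 0.0163, adjusted p = 0.588), with less Ctsz after pMCAO in 5 of 5 same-numbered pairs. The log2 fold change of Ctsd was 0.0035. Deviations of same-numbered libraries correlated at 0.107, 0.460, -0.020, 0.343 and 0.449 for replicates 1 to 5. Both libraries of replicates 1, 2 and 5 and pMCAO replicate 4 correlated best with their own number. Neither library of replicate 3 nor sham replicate 4 did so. The labels give no collection day and do not say whether same-numbered libraries were paired, and the main fit used no block. Depth limits what Ctsk and, in the libraries with few counts, Ctse can show.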
